A study of Mus musculus with 4 samples.

Results

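The 72 genes described here are named for protein subunits of the mitochondrial ribosome. They were found among the 7252 tested genes of the authors' deposited table as the rows that name a single gene whose symbol begins with Mrpl or Mrps followed by a digit. By symbol, 44 belong to the large subunit (Mrpl) and 28 to the small subunit (Mrps). The rule uses the symbol and the status alone, and no such row had a status other than tested. Of the protein-coding symbols of this form in the GENCODE M21 annotation, 44 of 49 Mrpl and 28 of 29 Mrps are in the table, and the others are not analysed here.

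Mitochondria keep a ribosome of their own, which translates the few messenger RNAs of the mitochondrial genome into membrane subunits of the respiratory chain and ATP synthase. All of its proteins are encoded in the nucleus, made in the cytosol and imported, and its RNAs come from mitochondrial DNA. Some of the proteins descend from bacterial ribosomal proteins and others exist only in mitochondrial ribosomes. T cells that leave quiescence build up mitochondria and their translation machinery, and mitochondrial protein synthesis is needed for T cells to expand and to make cytokines.

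The libraries are labelled as effector T cells, either CD5 high or CD5 low, and came from mice of the genotype NOD.Foxp3-GFP aged 6 to 9 weeks. CD5 is an inhibitory coreceptor whose level on T cells follows the strength of self-recognition. NOD mice develop autoimmune diabetes, and every group carried the same Foxp3-GFP allele, a green fluorescent marker of cells that express the regulatory T cell factor Foxp3. The library titles name islets, while the tissue label names both pancreatic islets and spleen. Each group had 2 libraries, numbered 3 and 4 in the titles, and the labels do not say whether cells of several animals were pooled.

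For each gene and group the authors' deposited table lists a single FPKM (fragments per kilobase of transcript, scaled to library size). Values therefore carry no SD and no n, and the sequencing depth is unknown. Pairs of values are given as CD5 low, then CD5 high, fold changes are CD5 high over CD5 low, and p and q are the authors' unadjusted and adjusted values. The libraries held bulk RNA, in which fewer cells of a type and less RNA per cell cannot be told apart. Cd5 itself had 45.4 FPKM in CD5 low against 206 in CD5 high, per the authors' deposited table, the direction of the labels. All 7 tested T cell markers, of 8 listed, had between 205 and 991 FPKM in both groups. Some markers of other cells also passed the test: the 9 tested markers of antigen-presenting cells summed to 1256 FPKM in CD5 low against 637 in CD5 high, with Fcer1g listed at 0 in CD5 high, and 8 of them were lower there, 5 at q under 0.05. The 6 tested endocrine markers, 3 higher and 3 lower in CD5 high, summed to 339 and 2807 FPKM. Ins2 was at 26.7 and 2395 FPKM (q = 0.193), Ins1 at 4.003 and 368 FPKM (q = 0.0186) and Sst at 263 and 6.86 FPKM (q = 0.0714) by the authors' deposited table. The 22 tested exocrine markers summed to 2239 and 2065 FPKM. The 7 tested regulatory T cell markers, of 11 listed, summed to 393 and 789 FPKM, all higher in CD5 high and 4 at q under 0.05. Much of that sum was Ctla4 (132 and 272 FPKM) and Tnfrsf18 (122 and 213 FPKM), while Foxp3 had 1.10 and 12.3 FPKM (q = 0.298) by the authors' deposited table. The B cell list and the list of CD8 T and NK cells had 1 tested marker each. Of 20 listed cell cycle genes 15 were tested and summed to 359 and 527 FPKM. Values were higher in CD5 high for 13 of the 15 (86.7%, compared with 49.1% of all tested genes), and 4 had q under 0.05 (0.758% of all tested genes). The part of other cells and of cell division in the values below was not tested.

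None of the 72 mitochondrial ribosomal protein genes (0) reached q under 0.05 in the comparison of the CD5 groups, against 0.758% of all tested genes, and their lowest q was 0.303 by the authors' deposited table. At an unadjusted p under 0.05 there were 7 genes (9.72%), a share close to the 10.3% of all tested genes. Of these 7, 3 were higher in CD5 high (5.58% of all tested genes passed in that direction) and 4 were lower (4.7%). A higher value in CD5 high was found for 40 of the 72 genes (55.6%), compared with 49.1% of all tested genes. The median log2 fold change was 0.07, with the middle 50% of genes between -0.27 and 0.37, and the median over all tested genes was -0.01. For 54 of the 72 genes the absolute log2 fold change was under 0.5.

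The levels themselves spanned a wide range. In CD5 low the members ran from 6.37 to 668 FPKM, a 105-fold range, with a median of 39.7 FPKM, and in CD5 high from 3.36 to 945 FPKM with a median of 41.3 FPKM. The medians over all tested genes were 20.2 and 20.5 FPKM. The order of the genes was close to the same in both groups (Spearman's rho 0.94 over 72 genes), and 9 of the 10 most abundant members were shared. This is a correlation across genes, which are not independent replicates. Together the members took 0.510% of the FPKM summed over all tested genes in CD5 low and 0.608% in CD5 high. The sum over all tested genes was itself lower in CD5 high, at 1.04039e+06 FPKM in CD5 low and 960029 in CD5 high. The members summed to 5303 and 5834 FPKM, of which Mrpl52 alone had 668 and 945.

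**Figure D1:**
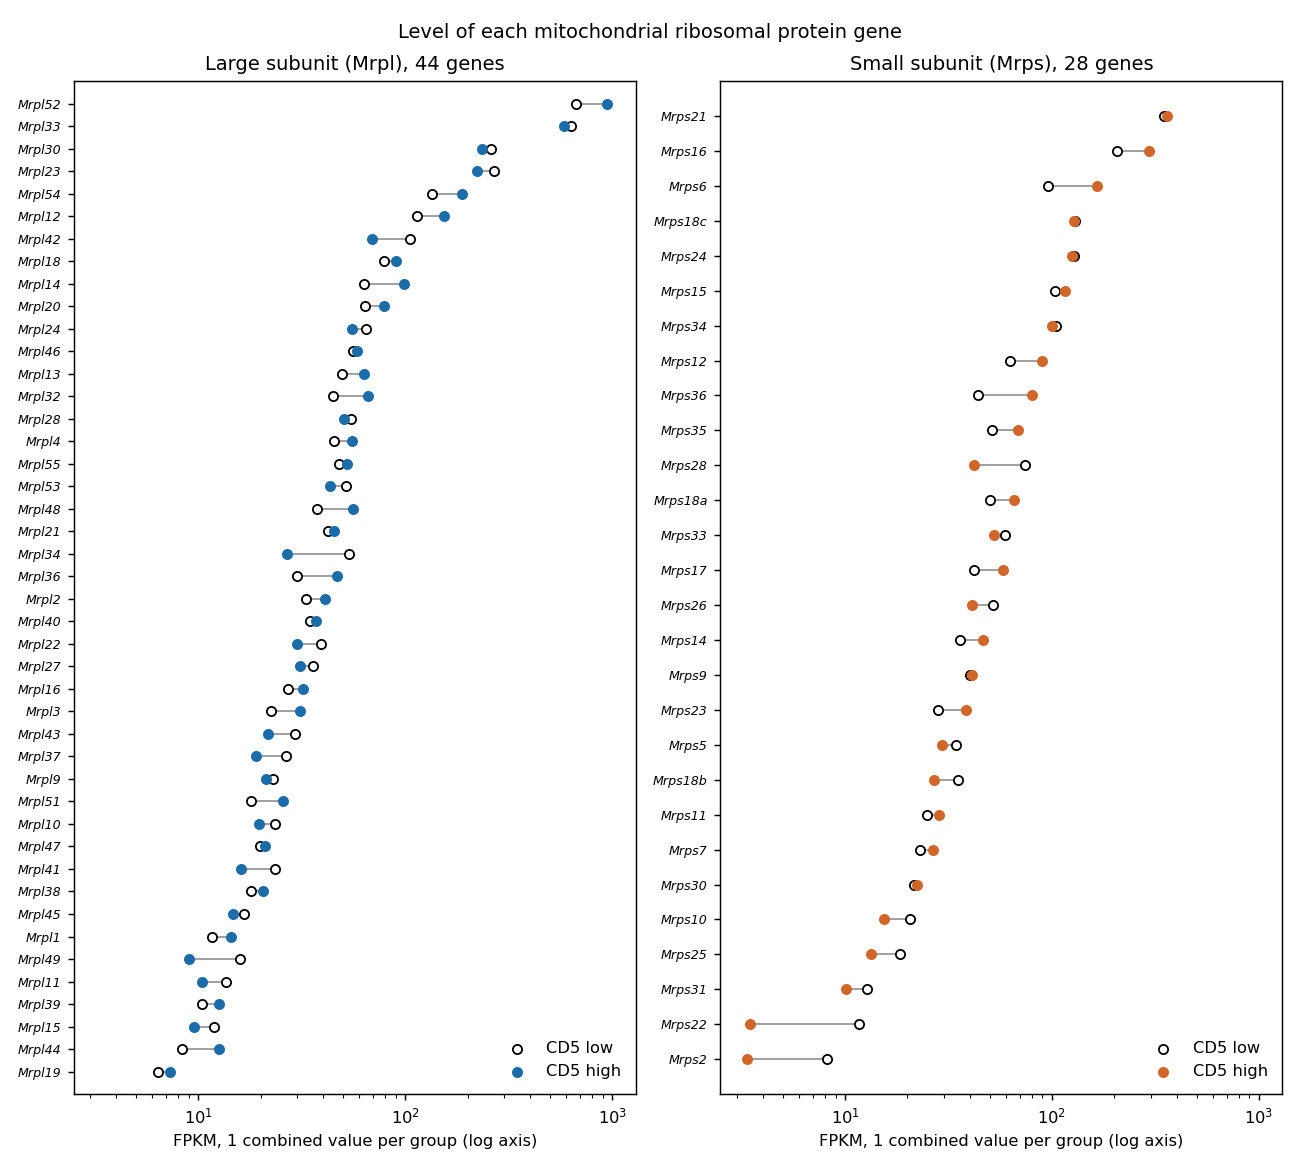
FPKM of each gene in CD5 low (open circles) and CD5 high (filled circles) on a log axis, ordered by mean level within the large and the small subunit; each point is the authors' 1 combined value, so there are no error bars. The members run from Mrpl19 and Mrps2, under 10 FPKM in both groups, to Mrpl52, at 668 and 945 FPKM.

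Among the 44 large subunit genes, 25 had a higher and 19 a lower value in CD5 high, with a median log2 fold change of 0.10. An unadjusted p under 0.05 was found for 2 of the 44 (4.55%), compared with 10.3% of all tested genes. The median level was 36.6 FPKM in CD5 low against 39.0 in CD5 high. Mrpl52, a protein found only in mitochondrial ribosomes, was the most abundant member, with 668 FPKM in CD5 low against 945 in CD5 high (1.41-fold, p = 0.01545, q = 0.347) by the authors' deposited table. Mrpl34, a relative of the small bacterial protein L34, went the other way with 53.6 and 26.9 FPKM (1.99-fold lower, p = 0.02905, q = 0.411) by the authors' deposited table. Mrpl33 and Mrpl30, the next in abundance, were listed at 634 and 587 FPKM (q = 0.901) and at 259 and 235 FPKM (q = 0.878) by the authors' deposited table. So the most abundant large subunit genes pointed in both directions, and none passed the adjusted test. Each gene was represented by the annotated transcript with its longest coding sequence. On that measure Mrpl52 and Mrpl33, with Mrps21 of the small subunit, were the shortest of all members (418, 478 and 488 bases). FPKM is scaled by transcript length, and the part of length in this ranking was not tested.

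The highest log2 fold changes of the large subunit were 0.65 for Mrpl36 (29.99 and 46.97 FPKM, q = 0.553), 0.65 for Mrpl14 (63.1 and 98.6 FPKM, q = 0.506), 0.60 for Mrpl44 (8.34 and 12.6 FPKM, q = 0.721) and 0.58 for Mrpl48 (37.3 and 55.9 FPKM, q = 0.737) by the authors' deposited table. Mrpl36 and Mrpl14 have bacterial counterparts, Mrpl44 has a fold related to ribonuclease III, and Mrpl48 lies in the central protuberance, the crest of the large subunit. After Mrpl34, the lowest were -0.82 for Mrpl49 (15.9 and 8.98 FPKM, q = 0.714), -0.60 for Mrpl42 (105 and 69.3 FPKM, q = 0.485) and -0.54 for Mrpl41 (23.4 and 16.04 FPKM, q = 0.603) by the authors' deposited table. These 3 are subunits that bacteria lack. Mrpl12, which forms the flexible stalk that recruits translation factors and has also been reported to bind the mitochondrial RNA polymerase, had 114 and 154 FPKM (1.35-fold, p = 0.06235, q = 0.519) by the authors' deposited table. The least abundant, Mrpl19, had 6.37 and 7.31 FPKM by the authors' deposited table. Exons of Mrpl14, Mrpl19, Mrpl36, Mrpl44, Mrpl48 and Mrpl49 overlap those of another coding gene on the opposite strand in GENCODE M21. The library kit does not mark strand, so their reads cannot be told apart there. Mrpl48 also has 1 annotated pseudogene of its own symbol that could share reads.

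Among the 28 small subunit genes, 15 had a higher and 13 a lower value in CD5 high, with a median log2 fold change of 0.03. An unadjusted p under 0.05 was found for 5 of the 28 (17.9%), compared with 10.3% of all tested genes. Among the 25 genes placed in the small subunit by structure, as described below, it was found for 4 (16%). Median levels were 43.1 and 44.2 FPKM. Mrps36 had the highest log2 fold change of all 72 genes, at 43.9 FPKM in CD5 low against 80.4 in CD5 high (1.83-fold, p = 0.01165, q = 0.303) by the authors' deposited table. Despite its symbol, the product of Mrps36 is now placed in the 2-oxoglutarate dehydrogenase complex of the citric acid cycle and not in the ribosome, and 3 annotated pseudogenes bear its symbol, with which it could share reads. Mrps16, whose human counterpart is mutated in a deficiency of several respiratory complexes, had 206 and 294 FPKM (1.42-fold, p = 0.03035, q = 0.419) by the authors' deposited table. Mrps6, at 95.5 and 165 FPKM, had a 1.72-fold higher value with a p of only 0.1998 (q = 0.694) by the authors' deposited table. Mrps6 shares exons with Slc5a3 on the same strand, and the table gives both genes the same locus. Mrps12, whose bacterial counterpart helps form the decoding centre, had 62.4 and 89.5 FPKM (1.43-fold, q = 0.585), and Mrps21 was nearly level at 349.7 and 358 FPKM (q = 0.979) by the authors' deposited table.

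The lowest log2 fold changes of the small subunit were those of Mrps22, Mrps2, Mrps28 and Mrps25, of which Mrps22 and Mrps2 were the lowest of all 72 genes. Mrps22, a mitochondria-specific subunit, had 11.6 FPKM in CD5 low against 3.46 in CD5 high (3.36-fold lower, p = 0.0362, q = 0.440) by the authors' deposited table. Mrps2 had 8.22 and 3.36 FPKM (2.45-fold lower, p = 0.03355, q = 0.432), and Mrps28, a relative of part of bacterial S1, had 73.8 and 41.8 FPKM (1.77-fold lower, p = 0.0212, q = 0.370) by the authors' deposited table. Mrps25, which bacteria lack, had 18.5 and 13.4 FPKM (q = 0.586) by the authors' deposited table. Exons of Mrps25 overlap those of Nr2c2 on the opposite strand in GENCODE M21, so their reads cannot be told apart there. Mrps22 and Mrps2 were the least abundant small subunit genes, and both their CD5 high values lay below 6.82 FPKM, the smallest level that any tested gene reached in its higher group. Both reached that level in CD5 low only, so their presence among the tested genes may rest on that group alone.

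**Figure D2:**
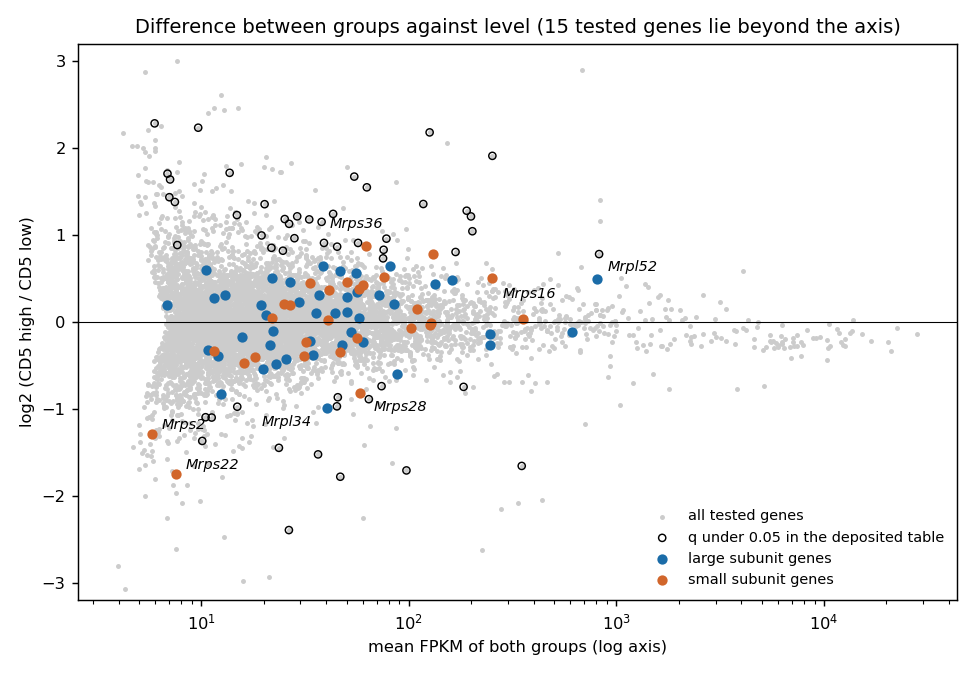
Log2 fold change of CD5 high over CD5 low (vertical axis) against the mean FPKM of both groups (log axis) for all tested genes (grey), genes at q under 0.05 (black rings), and large (blue) and small (orange) subunit genes, with the 7 members of unadjusted p under 0.05 named. No member carries a ring, and the members lie on both sides of 0.

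To place these sizes, the smallest absolute log2 fold change among the 53 genes with a finite fold at q under 0.05 was 0.73 by the authors' deposited table. Of the 72 members 7 (9.72%) reached that size, as did 9.13% of tested genes with a finite fold. The 7 were 2 higher (Mrps36 and Mrps6) and 5 lower (Mrpl34, Mrpl49, Mrps2, Mrps22 and Mrps28), without passing the adjusted test. As above, Mrps2 and Mrps22 may be among the tested genes through their CD5 low values alone. The absolute log2 fold change had a median of 0.32 over members and 0.24 over all tested genes. Among genes of 60 FPKM and over the medians were 0.31 for 21 members and 0.18 for 1287 tested genes. Members are short, with a median coding length of 594 bases compared with 1275 bases over 6613 tested coding genes, and the part of length in this spread was not tested. Among coding genes of under 600 bases the medians were 0.40 for 16 members and 0.28 for 322 tested genes between 20 and 60 FPKM, and 0.40 for 16 members and 0.18 for 441 tested genes at 60 FPKM and over. Among those of 600 bases and over they were 0.23 for 20 members and 0.20 for 1910 tested genes between 20 and 60 FPKM, and 0.22 for 5 members and 0.16 for 688 tested genes at 60 FPKM and over. Below 20 FPKM, 11 members of that length had a median of 0.32 and 2986 tested genes one of 0.29. Level and coding length were related across the 72 genes (Spearman's rho -0.54), the shorter genes having the higher FPKM, and fold change and coding length hardly were (-0.16).

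The large and small subunits were close to each other. Their median log2 fold changes differed by 0.07, and the middle 50% of genes ran from -0.26 to 0.32 in the large and from -0.33 to 0.39 in the small subunit. The ratio of the large to the small subunit median level was 0.851 in CD5 low and 0.883 in CD5 high. The summed FPKM of the large subunit was 3436 in CD5 low and 3748 in CD5 high, and without Mrpl52 it was 2768 and 2803 FPKM. The small subunit summed to 1867 and 2086 FPKM. Genes are not replicates of a condition, so these are descriptions without a test. Among genes with a mean of at least 20 FPKM, 57 of the 72, the order of the subunits was the other way, with a large minus small difference of -0.051 (log2).

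Symbols do not always give the place in the ribosome. Mrps30 and Mrps18a sit in the large subunit, with 21.5 and 22.3 FPKM (q = 0.977) for Mrps30 and 50.1 and 65.2 FPKM (q = 0.707) for Mrps18a by the authors' deposited table. With these moved and Mrps36 left out, 46 large subunit genes had a median log2 fold change of 0.10 and 25 small subunit genes one of -0.01, which turns to 0.00195 when the median of all tested genes is subtracted. Relatives of bacterial ribosomal proteins (45 genes) had a median of 0.10, with 26 higher and 19 lower. The mitochondria-specific proteins (26 genes) had a median of -0.01, with 13 in each direction. With the summed FPKM of both groups set equal, which moves every gene alike, these medians were 0.22 and 0.11. Of the 8 mitochondria-specific small subunit genes 6 had lower values in CD5 high, Mrps22 and Mrps25 among them, or 5 with equal summed FPKM. The share with higher values was 25%, compared with 49.1% of all tested genes. An unadjusted p under 0.05 was found for 1 of the 8 (12.5%), compared with 10.3% of all tested genes.

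Functional neighbourhoods of the ribosome, grouped after the values were known, gave no member past the test, and the groups do not hold every protein of a place. At the exit of the peptide tunnel, where new chains meet the inner membrane, Mrpl22, Mrpl23, Mrpl24 and Mrpl45 had log2 fold changes from -0.38 to -0.17. Mrpl47 and Mrpl32, which also lie near the exit, had log2 fold changes of 0.08 and 0.56, so values around the exit lay on both sides of 0. The most abundant of them, Mrpl23, had 268 and 223 FPKM (q = 0.737) by the authors' deposited table and has 1 pseudogene of its own symbol. Around the peptidyl transferase centre, Mrpl2, Mrpl3, Mrpl4, Mrpl16 and Mrpl27 ran from -0.22 to 0.47, with Mrpl3 at 22.6 and 31.1 FPKM (q = 0.638) the highest by the authors' deposited table. In the central protuberance, which touches the transfer RNAs, Mrpl18, Mrpl38, Mrpl40, Mrpl46 and Mrpl48 ran from 0.05 to 0.58. Ict1, a subunit of another symbol at the same place, had a log2 fold change of -0.61, and Mrpl27, which reaches from the protuberance to the peptidyl transferase centre, one of -0.22. Near the base of the stalk, Mrpl10 and Mrpl11 were lower in CD5 high (-0.26 and -0.39, log2) while Mrpl12 was higher (0.44). In the small subunit, the platform proteins Mrps6, Mrps11, Mrps15, Mrps18c and Mrps21 ran from -0.01 to 0.79 and the head proteins Mrps7, Mrps9, Mrps10 and Mrps14 from -0.41 to 0.37. The paralogs Mrps18a, Mrps18b and Mrps18c, which occupy different places in the ribosome, had log2 fold changes of 0.38, -0.39 and -0.01.

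The genes lie on 17 chromosomes, and 15 of the 72 (20.8%) start head to head with another coding gene within 1000 bases, compared with 11.5% of 6616 tested coding genes. Pairs whose starts lie past each other in GENCODE M21, such as Mrpl46 and Mrps11 below, were not counted in either share. Of these 15 partners 6 were tested, and 5 of the 6 had the same direction as the member. Over all 205 head-to-head pairs with both genes tested, 108 (52.7%) had the same direction. In the closest pair by position, Mrpl54 had 135 and 189 FPKM (0.48, log2) and its partner Apba3, whose start lies 26 bases away, 5.85 and 7.72 FPKM (0.40, q = 0.858) by the authors' deposited table. Mrpl30 and its partner Mitd1, 66 bases away, had log2 fold changes of -0.14 each. Mrpl49 and Fau differed more in size, at -0.82 and -0.09 (log2), and Mrpl41 and Pnpla7 were the pair of opposite direction, at -0.54 and 0.06. One pair of members shares a start region: Mrpl46 and Mrps11 are transcribed away from each other on chromosome 7 from RefSeq starts 42 bases apart. Mrpl46, on the minus strand, had 56.2 and 58.2 FPKM (q = 0.975) and Mrps11, on the plus strand, 24.8 and 28.4 FPKM (q = 0.903) by the authors' deposited table. Their annotated exons overlap in GENCODE M21, so some reads cannot be assigned between them. In total 31 of the 72 genes have exons that overlap those of another annotated gene, a coding gene in 23 cases.

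Several nuclear factors are known to act at promoters of mitochondrial ribosomal protein genes, among them Nrf1, the ETS factor GABP and YY1. RefSeq promoter windows (GRCm38.p6, 250 bases before to 50 after the start) matched 63 of the 72 symbols. They were searched on both strands for GCGCANGCG (Nrf1), CCGGAAG (ETS), ATGGCGGC (YY1) and the E-box CACGTG bound by Myc, where matches that overlap on opposite strands count separately. The ETS motif was in 22 of 63 members (34.9%), in 25.2% of 5442 tested genes with a window and in 8.86% of all 32851 windows. The Nrf1 motif was in 14 members (22.2%), 17.8% of tested genes and 6.25% of all windows. The YY1 motif was in 9 members (14.3%), 7.31% of tested genes and 2.24% of all windows, and the E-box was in 5 members (7.94%), 12.7% of tested genes and 7.15% of all windows. Of the 9 YY1 matches in members, 8 lay downstream of the start, as did 61.7% of those in tested genes. Median GC content was 58.3% in members' windows and 61.0% in those of tested genes.

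**Figure D3:**
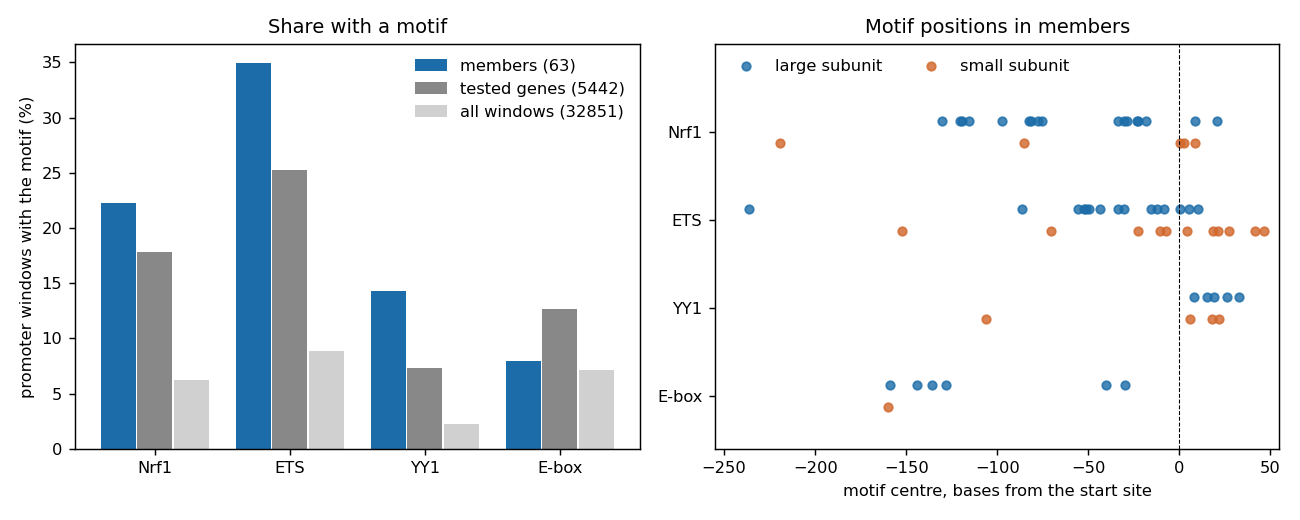
Left, percentage of promoter windows that hold each motif on either strand for members (blue), tested genes (dark grey) and all windows (light grey); right, centre of each match in members, in bases from the start site at 0, for large (blue) and small (orange) subunit genes. The ETS motif is the most frequent in members at 34.9%, and 8 of 9 YY1 matches lie right of the start.

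The windows of 6 members are shown because they carry the contrasts described above. Mrpl22 holds an ETS, an Nrf1 and a YY1 match, Mrpl52 is the most abundant member, Mrps36 and Mrps22 have the highest and the lowest fold change, and Mrps11 and Mrpl46 share 141 bases. Each is written 5′ to 3′ on the strand of its gene, and capitals mark the motif matches.
Mrpl22, chr11:58171414-58171713, plus strand: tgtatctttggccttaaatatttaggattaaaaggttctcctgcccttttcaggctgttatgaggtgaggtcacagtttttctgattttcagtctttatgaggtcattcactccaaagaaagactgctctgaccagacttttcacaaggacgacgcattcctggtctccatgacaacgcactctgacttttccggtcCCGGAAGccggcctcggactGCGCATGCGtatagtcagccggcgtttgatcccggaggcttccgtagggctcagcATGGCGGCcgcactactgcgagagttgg
Mrpl52, chr14:54426659-54426958, plus strand: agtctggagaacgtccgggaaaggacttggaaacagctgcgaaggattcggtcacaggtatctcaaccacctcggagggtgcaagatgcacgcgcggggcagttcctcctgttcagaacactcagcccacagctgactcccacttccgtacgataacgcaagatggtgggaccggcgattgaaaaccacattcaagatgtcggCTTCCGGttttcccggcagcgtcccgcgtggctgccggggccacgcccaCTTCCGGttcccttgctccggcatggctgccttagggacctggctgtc
Mrps36, chr13:100744610-100744909, minus strand: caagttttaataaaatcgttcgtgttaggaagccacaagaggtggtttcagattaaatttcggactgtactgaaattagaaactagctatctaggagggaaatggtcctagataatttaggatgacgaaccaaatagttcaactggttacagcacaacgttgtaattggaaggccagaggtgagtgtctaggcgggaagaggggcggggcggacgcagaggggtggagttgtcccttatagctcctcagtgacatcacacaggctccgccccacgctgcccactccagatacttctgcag
Mrps22, chr9:98601630-98601929, minus strand: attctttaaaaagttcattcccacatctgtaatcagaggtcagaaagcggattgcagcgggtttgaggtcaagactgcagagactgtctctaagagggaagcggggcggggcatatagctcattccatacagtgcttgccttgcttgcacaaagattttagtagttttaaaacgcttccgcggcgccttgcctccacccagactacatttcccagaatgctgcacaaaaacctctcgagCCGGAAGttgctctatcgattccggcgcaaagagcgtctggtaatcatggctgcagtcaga
Mrps11, chr7:78782881-78783180, plus strand: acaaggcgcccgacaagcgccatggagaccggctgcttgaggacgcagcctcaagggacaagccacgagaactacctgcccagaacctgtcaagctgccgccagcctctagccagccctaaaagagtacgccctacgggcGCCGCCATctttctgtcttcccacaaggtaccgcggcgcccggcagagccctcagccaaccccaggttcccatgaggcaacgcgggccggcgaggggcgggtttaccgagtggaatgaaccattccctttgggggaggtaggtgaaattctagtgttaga
Mrpl46, chr7:78783040-78783339, minus strand: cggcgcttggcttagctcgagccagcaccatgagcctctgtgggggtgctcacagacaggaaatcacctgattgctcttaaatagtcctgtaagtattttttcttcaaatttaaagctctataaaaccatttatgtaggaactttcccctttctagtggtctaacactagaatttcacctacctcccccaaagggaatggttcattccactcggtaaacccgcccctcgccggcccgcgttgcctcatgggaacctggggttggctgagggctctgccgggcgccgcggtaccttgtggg

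Mrpl22 has the ETS and then the Nrf1 letters before its start and the YY1 letters after it. Mrpl52 has the ETS letters at 2 places on the strand opposite to the gene, and Mrps22 has them once, just before the start. None of the 4 motifs is in the windows of Mrps36 and Mrpl46, and the YY1 letters of the Mrps11 window lie outside the stretch shared with Mrpl46. The median log2 fold change was 0.01 over 22 members with the ETS motif and 0.05 over 41 without it, and -0.04 over 14 members with the Nrf1 motif and 0.08 over 49 without it. Over the 9 members with the YY1 motif it was -0.22, with 3 higher and 6 lower, and over the 54 without it 0.09. With the E-box it was 0.31 over 5 members, 3 higher and 2 lower, and without it 0.04 over 58. A match of letters is not a site of binding, and no test was made.

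The factors themselves showed no difference that passed the test. Of 11 listed regulators of mitochondrial biogenesis 10 were tested, with a median log2 fold change of 0.26. Values were higher in CD5 high for 8 of the 10 (80%), compared with 49.1% of all tested genes. An unadjusted p under 0.05 was found for 0 of them, compared with 10.3% of all tested genes. Nrf1 had 19.6 and 20.3 FPKM (q = 0.975), Gabpa, the DNA-binding subunit of GABP, 6.92 and 9.05 FPKM (q = 0.875), Yy1, the most abundant, 52.2 and 44.2 FPKM (q = 0.767) and Myc 34.7 and 29.5 FPKM (q = 0.803) by the authors' deposited table.

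Some subunits are known under other symbols. The 3 large subunit genes and 4 small subunit genes of this kind that were tested included none at q under 0.05. Ict1, a peptidyl-tRNA hydrolase built into the large subunit, had 110.1 FPKM in CD5 low against 71.9 in CD5 high (1.53-fold lower, p = 0.0334, q = 0.432) by the authors' deposited table. Mrp63 had 25.2 and 29.7 FPKM (q = 0.810) and Gadd45gip1, also called Crif1, 18.7 and 22.4 FPKM (q = 0.878) by the authors' deposited table. In the small subunit, the GTP-binding protein Dap3 had 20.1 and 17.3 FPKM (q = 0.813) and Chchd1 had 118 and 114 FPKM (q = 0.977) by the authors' deposited table. Aurkaip1 had 69.8 and 51.0 FPKM (q = 0.571) and Ptcd3, a pentatricopeptide repeat protein, 25.5 and 31.3 FPKM (q = 0.733) by the authors' deposited table.

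The proteins that build and serve the mitochondrial ribosome were assembled into 4 further lists, and no gene of them passed q under 0.05. Of 26 listed assembly factors 15 were tested, 9 higher and 6 lower, with a median log2 fold change of 0.09. The assembly GTPase Gtpbp5 had 17.8 and 29.4 FPKM (1.65-fold, p = 0.0379, q = 0.448) and Malsu1, the most abundant of them, 49.8 and 55.3 FPKM (q = 0.917) by the authors' deposited table. Of 15 listed translation factors 9 were tested, 3 higher and 6 lower, with a median of -0.38. The ribosome recycling factor Mrrf had 14.4 and 6.08 FPKM (2.37-fold lower, p = 0.04095, q = 0.457), and Tufm, the elongation factor that delivers transfer RNAs, 41.4 and 45.5 FPKM (q = 0.901) by the authors' deposited table. Levels of the translation factors were low, with medians of 12.5 and 10.1 FPKM. The CD5 high values of Mrrf, Guf1 (5.91 FPKM) and 2810006K23Rik (2.95 FPKM) lay below the 6.82 FPKM named above for Mrps22 and Mrps2. Of 23 listed symbols for mitochondrial transfer RNA synthetases and related enzymes 12 were tested, 6 in each direction, with a median of -0.01 and Tars2, the most abundant, at 33.8 and 36.4 FPKM (q = 0.924) by the authors' deposited table.

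In the list for expression and upkeep of mitochondrial DNA 12 of 18 listed genes were tested, with a median log2 fold change of 0.11. Values were higher in CD5 high for 10 (83.3%, compared with 49.1% of all tested genes) and lower for 2. Their absolute log2 fold change had a median of 0.16, compared with 0.24 over all tested genes. An unadjusted p under 0.05 was found for 2 of the 12 (16.7%), compared with 10.3% of all tested genes. Tfb2m, which opens mitochondrial promoters for the polymerase, had 43.4 and 29.3 FPKM (1.48-fold lower, p = 0.02115, q = 0.370) by the authors' deposited table. Ssbp1, which coats single strands of mitochondrial DNA, had 19.2 and 32.9 FPKM (1.72-fold, p = 0.0228, q = 0.381) by the authors' deposited table. Slirp, a stabilizer of mitochondrial messenger RNAs and the most abundant of the list, had 173 and 182 FPKM (q = 0.979) by the authors' deposited table. The table has 0 rows on the mitochondrial chromosome, so the transcripts that this ribosome translates are not analysed here.

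**Figure D4:**
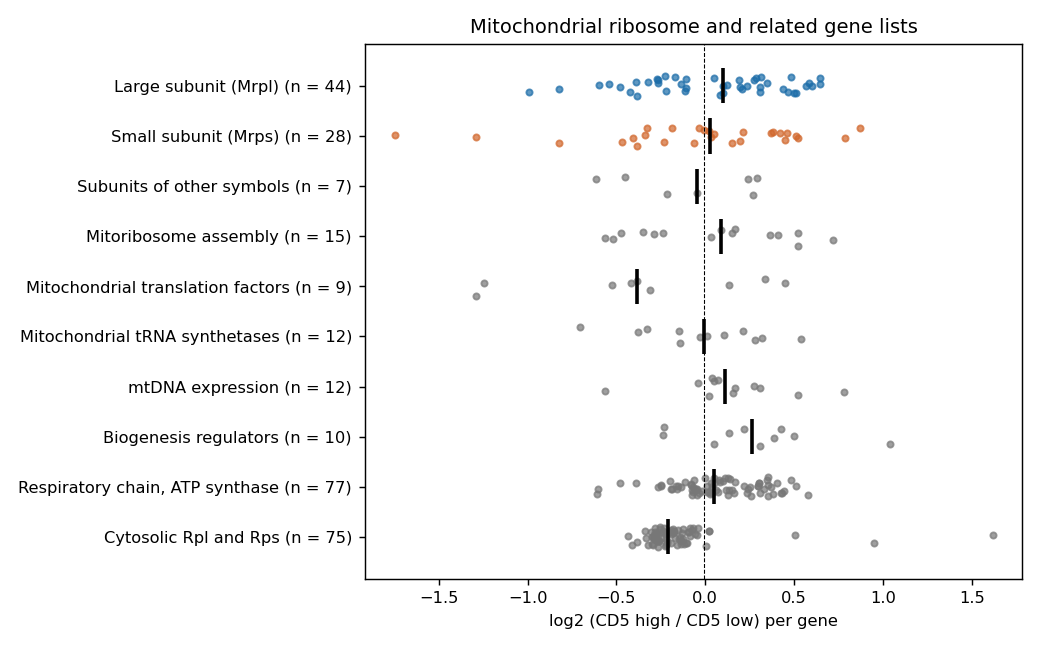
Log2 fold change of CD5 high over CD5 low for each tested gene (points, spread vertically at random) by list, with the median of the list (thick bar) and of all tested genes (dashed line). Large and small subunit genes have medians of 0.10 and 0.03, and cytosolic ribosomal protein genes -0.21. Mitochondrial translation factors have -0.38, at median levels of 12.5 FPKM in CD5 low and 10.1 in CD5 high. The cytosolic median is -0.0048 after quantile normalization, which removes a shift shared by genes of the top ranks.

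Set beside related families, 32 of the 72 mitochondrial genes and 69 of 75 cytosolic ribosomal protein genes had lower values in CD5 high, the latter being 69 with the median of all genes subtracted, 58 with equal summed FPKM, and 38, with 27 higher and 10 tied, after quantile normalization. The cytosolic genes had a median log2 fold change of -0.21 (-0.20, -0.09 and -0.0048 under these scalings). An unadjusted p under 0.05 was found for 2 of the 75 (2.67%), compared with 10.3% of all tested genes. Their median levels were 6356 and 5375 FPKM. Quantile normalization gives equal ranks equal values, so it removes a shift that the most abundant genes share. The 77 nuclear genes for respiratory chain and ATP synthase subunits, which work beside the products of this ribosome, had a median of 0.05, with 48 higher and 29 lower. Their absolute log2 fold change had a median of 0.15, compared with 0.32 for the mitochondrial ribosome, and their level was higher, at a median of 237 and 247 FPKM. Differences between these families were not tested.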

How the data were processed

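RNA from CD5 high and CD5 low effector T cells (2 libraries each) was reverse transcribed, amplified and made into Nextera XT libraries, per the labels' protocols. TopHat 1.0.0, Cufflinks and mm10 are named in the submitters' processing notes. The Cufflinks version, the annotation and the scaling are not given in the sources used for this text. Per the file headers, the columns are those of a Cuffdiff gene test: the authors deposited FPKM (1 combined value per group), a log2 fold change, a test statistic (a score not used here), a p-value and a q-value per gene. Deposited log2 fold changes matched the ratio of both FPKM columns to within 5.1e-05. Table starts were raised by 1 to count from 1.

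With 1 value per group, no limma test, replicate block or leave-one-out fit could be made, so the authors' test over 7252 genes is described, at q under 0.05. The labels do not say that libraries came from separate animals, so p-values may measure technical spread. Genes named were all members at an unadjusted p under 0.05, and per subunit the 4 highest and 4 lowest fold changes, the 3 most and 2 least abundant genes, plus Mrps30, Mrps18a, Mrps36 and Mrpl12; for the lists, every tested subunit of another symbol, genes at that p and the most abundant gene. Others are named where a functional group, pair or regulator is described and were chosen after their values were seen. The members and lists were chosen with earlier results of these data known. Promoter windows come from RefSeq (GRCm38.p6) and overlaps from GENCODE M21. Protein features were not analysed here. Alternatives covered scaling, a pseudocount of 1 FPKM, a minimum of 20 FPKM, membership and the call threshold. Python 3.11.15 with pandas 2.3.3 was used, and the summary code was tested on simulated data.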

Additional observations from a re-analysis of the deposited data

How the results depend on the processing

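Of 43 recomputed list values and counts, 38 moved by less than 0.1 (log2), 10 percentage points or 1.5 times. Some of these could hardly move, so the tally is no measure of robustness. Keeping rows of more than 1 gene returned the same 72 genes. The subtracted median of all genes was only -0.0086 (log2), and a uniform shift cannot change the large minus small difference. Setting the summed FPKM of both groups equal, a sum of which cytosolic ribosomal protein genes take 52.0% in CD5 low and 49.1% in CD5 high, shifts every gene by 0.12 (log2). The median was then 0.22 in the large and 0.14 in the small subunit, or as reported relative to that shift. With a minimum mean of 20 FPKM the small subunit median was 0.15 and the large minus small difference -0.051, by leaving out 15 genes. Replacing q under 0.05 by an unadjusted p under 0.05 gave 7 members in place of 0, and q under 0.10 gave 0. Adjusting over genes of at least 20 FPKM, or without marker genes of other cells, gave a lowest adjusted p of 0.302 and 0.314. All 7 genes at an unadjusted p under 0.05 kept their direction under the 3 scalings and the pseudocount of 1 FPKM. For the pseudocount and the uniform shifts this was fixed in advance. An equal pseudocount cannot change a sign, and the shifts were smaller than the smallest of the 7 fold changes (0.50 for Mrpl52, log2). Leaving out the members that overlap another gene or have a pseudogene, an alternative chosen after seeing the data, left 39 genes, with medians of 0.11 and 0.03 and 6 genes at that p. No paired analysis was possible because each group has only 1 combined FPKM per gene, and for the same reason no library could be left out. The depth behind each value is unknown.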
